A study of Mus musculus with 3 samples.

Results

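The region described here is the stretch of mouse chromosome 7 that begins at the edge of the beta-globin viewpoint and runs 150 kb towards lower coordinates, the side of the second adult globin gene. Its members are all DpnII fragments in the deposited table whose midpoint lies from 110826215 to 110975291 (build mm9), whether or not they had reads. There are 330 such fragments among 48123 listed on the chromosome. The counts come from next-generation Capture-C, in which fixed chromatin is digested with DpnII and religated, and those that include a chosen viewpoint are pulled down with oligonucleotides and sequenced. A read in a fragment comes from a ligation product that joins it to captured sequence.

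All 3 samples belong to 1 group. They are erythroid cells of mixed strain, grown ex vivo from individual fetal livers taken at E12.5, with HS2 and HS3 of the beta-globin locus deleted on both alleles. The cells were expanded for 6 days, enriched for CD117 and then differentiated for 24 h, and the labels give the stage as late erythroid. A contact assay measures no RNA, so the stage could not be checked against marker genes. No sample without the deletion was analysed here, so every comparison below is between positions of the deletion profile. The labels name the viewpoint gene as Hbb-b1 and give no position for it.

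The adult beta-globin genes encode the beta chain of adult haemoglobin and are transcribed at very high levels in late erythroid cells. Their expression depends on the locus control region (LCR), a cluster of hypersensitive sites, HS2 and HS3 among them, that lies beyond the embryonic globin genes and is brought close to the active promoters. On the other side of the adult genes lie olfactory receptor genes, which serve the sense of smell and are silent in red cell precursors. A hypersensitive site bound by CTCF, a protein that shapes chromatin loops, is known between the adult genes and those receptors, and it was not placed here.

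In the RefSeq gene order of GRCm38, the genes on this side are Hbb-bt, an adult beta-globin gene, and then the olfactory receptor genes Olfr67, Olfr68, Olfr69, Olfr630 and Olfr629. Towards the LCR the order is Hbb-bs, the other adult gene, then Gm15115, Hbb-bh3, Hbb-bh2, Hbb-bh1 and Hbb-y, followed by Olfr66, Dnajc19-ps, Olfr64, Olfr65 and Olfr631. That table is of another build than the counts, so no fragment was assigned to a gene. Promoter sequences of both adult genes are shown because the fragments of this assay are defined by GATC, the DpnII site, and because the copies resemble each other. Each is the 250 bases before the gene's start in RefSeq, GRCm38.p6, minus strand, written 5′ to 3′, at chr7:103813924-103814173 for Hbb-bt and chr7:103827929-103828178 for Hbb-bs. Capitals mark GATC, the motif CACCC, the motif CCAAT and the motif TATAA on either strand, and in Hbb-bt a CCAAT of one strand adjoins one of the other.
Hbb-bt: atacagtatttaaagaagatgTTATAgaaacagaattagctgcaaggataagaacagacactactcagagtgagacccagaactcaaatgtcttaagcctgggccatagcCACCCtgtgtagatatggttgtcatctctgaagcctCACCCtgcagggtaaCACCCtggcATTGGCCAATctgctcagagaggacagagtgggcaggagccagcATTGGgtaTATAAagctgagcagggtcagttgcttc
Hbb-bs: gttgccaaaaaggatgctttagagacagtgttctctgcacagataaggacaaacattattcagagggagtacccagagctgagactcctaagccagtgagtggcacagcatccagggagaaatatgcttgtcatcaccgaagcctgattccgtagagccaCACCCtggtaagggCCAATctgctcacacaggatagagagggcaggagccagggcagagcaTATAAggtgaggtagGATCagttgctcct
The Hbb-bs window holds a GATC that begins 14 bases before the gene's start, and no GATC was found in the Hbb-bt window. Over 32851 RefSeq windows of this length, 41.9% hold GATC, 52.0% CACCC, 33.8% CCAAT and 22.8% TATAA. Both globin windows hold each motif except GATC, with 3 matches of CACCC in Hbb-bt and 1 in Hbb-bs. A global alignment of these windows had 175 identical positions, 69 mismatches and 12 gap positions, an identity of 68.4%. A letter match is a description of the window only.

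The 3 count columns carry no replicate number of their own, and below they are named by their order, from the first to the third. They held 49433, 49247 and 37382 chromosome 7 reads, referred to as cis reads. The labels describe cultures of individual livers but do not tie each sample to an animal, so p-values measure the spread between these columns, which may be technical. A count of 0 allows up to 0.00607%, 0.00609% and 0.00803% of a column's cis reads, and these limits and the binomial intervals below cover counting error only.

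The region held 21389 reads over the 3 columns. The first column had 8397 of them, or 17.0% of its cis reads (95% exact binomial interval 16.7 to 17.3). In the second column the region had 6790 reads, or 13.8% (13.5 to 14.1), and in the third column 6202, or 16.6% (16.2 to 17.0). The mean share was 15.8% ± 1.74 (SD, n = 3), and the second column lay below both others by more than its counting interval. The 150 kb on the LCR side held 22.9% ± 1.51. The listed fragments covered 95.9% of the region's sequence, with lengths of 16 to 3348 bp and a median of 300 bp.

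Of the 330 fragments, 189 had reads in every column, 43 in 2 columns and 29 in 1 column. The remaining 69 fragments, 20.9%, had no read in any column. On the LCR side 33 of 312 fragments (10.6%) were empty at the same distances, and from 150 kb to 1 Mb on this side 6.27% were. Over the whole table the share was 21.3%, close to that of the region. The fragments with reads in 1 column had at most 6 reads in all, and those in 2 columns at most 17. Every member with more than 17 reads thus had reads in all columns.

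Reads were concentrated in few fragments. The 10 fragments with the most reads held 57.9% ± 2.79 of the reads of the region (SD, n = 3), against 29.2% ± 1.51 for the 10 highest on the LCR side. By column the value was 60.4%, 54.9% and 58.5% here, and 30.5%, 27.5% and 29.6% there, so the ranges did not overlap. The 15 highest fragments had 66.0% of the reads and 4.66% of the listed sequence. Among these 15, 9 lay within 5 kb of the viewpoint's centre, 5 at 15 to 25 kb and 1 between, at 12.4 kb. Between 15 and 150 kb, the 10 highest of 296 fragments held 39.8% of the reads.

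**Figure D1:**
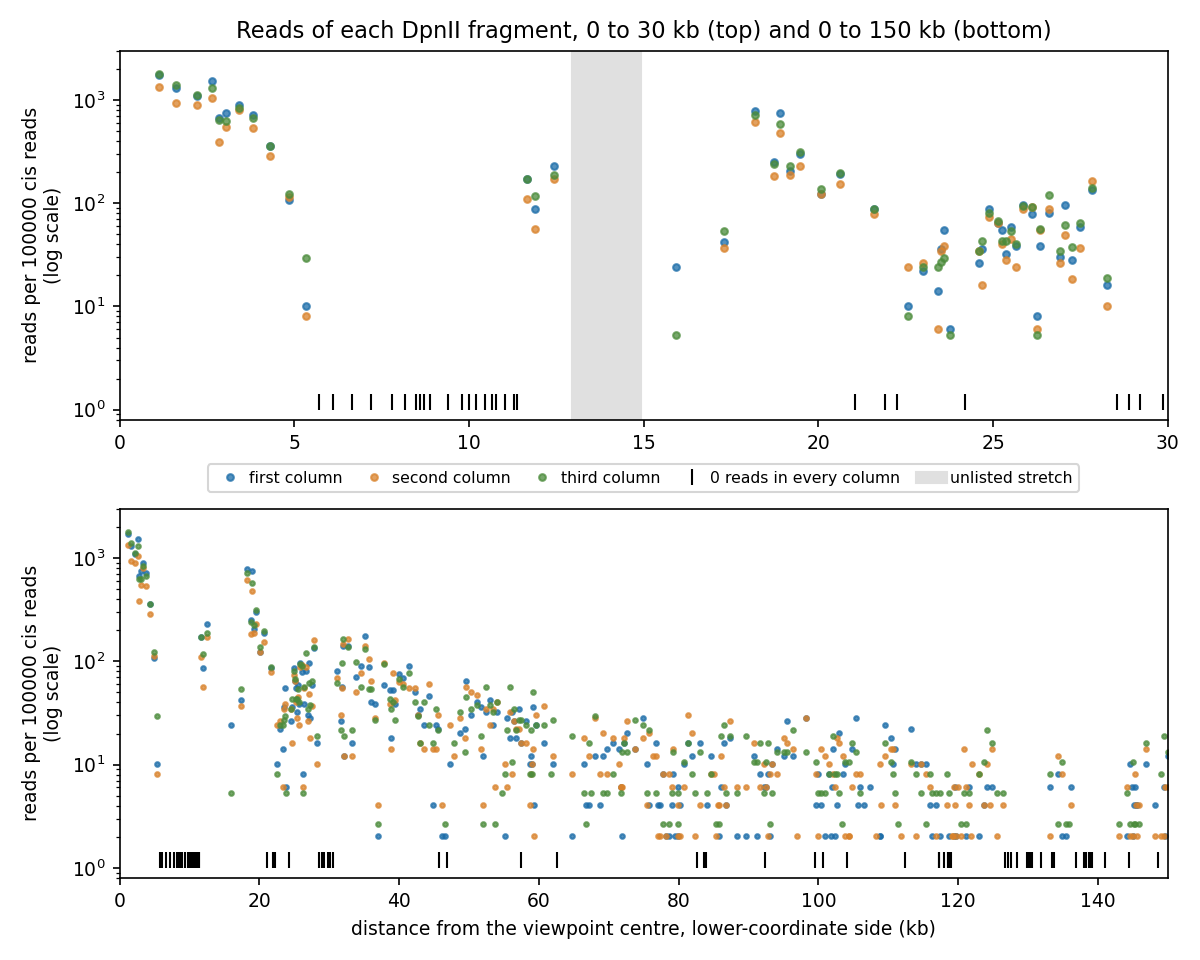
Reads of each of the 330 DpnII fragments, per 100000 cis reads on a log axis, against distance from the viewpoint's centre in kb; points are the 3 columns, ticks at the bottom are fragments with 0 reads in every column, a single column at 0 has no point, and the grey band (top, drawn to 30 kb) is the unlisted stretch. The highest fragments lie within 5 kb and at 18 to 20 kb, with 20 successive empty fragments between them.

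The fragment next to the viewpoint, chr7:110974902-110975291, had the most reads of all listed fragments, which is how the viewpoint was placed beside it. It held 855, 660 and 673 reads in the 3 columns. Scaled to 100000 cis reads these are 1730, 1340 and 1800, a mean of 1623 ± 248 (SD, n = 3). The fragment on the opposite edge of the viewpoint, chr7:110977139-110977621, had 186, 189 and 198 reads. Per kb these neighbours held 5610 and 1186 reads in all.

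The next fragments outwards stayed high. The 178 bp fragment chr7:110973476-110973653 had 759, 513 and 494 reads, and at 9921 reads per kb it was the densest within 5 kb. Its inner neighbour chr7:110973665-110974330, 666 bp long, had 542, 439 and 417 reads. At 3.40 kb, chr7:110972568-110973053 still had 447, 393 and 311 reads. From there the counts dropped within 2 kb, to 453 reads in chr7:110971560-110972253, 155 in chr7:110971168-110971559 and 20 in chr7:110970617-110971167. All 10 fragments within 5 kb had reads in every column, at least 155 in sum, and together they held 11257.

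Beyond this peak came an empty run. All 20 listed fragments from chr7:110964839-110970616, 5.60 to 11.4 kb from the viewpoint's centre, had 0 reads in each column. They cover 5226 bp, with 552 unlisted bp among them. Fragments of 22 to 947 bp were empty alike. On the inner side the run borders the fragment with 20 reads, and on its outer side chr7:110964350-110964785 had 85, 54 and 64 reads. The 3 fragments between the run and the next unlisted stretch, at 11.6 to 12.4 kb, thus had 203, 115 and 268 reads.

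An unlisted stretch of 1991 bp followed, chr7:110961283-110963273, of like size to the 1847 bp of the viewpoint itself, and its centre lay 13.9 kb from that of the viewpoint. Its inner neighbour, chr7:110963274-110964281, had 114, 84 and 70 reads. Its outer neighbour, the 2000 bp fragment chr7:110959283-110961282, had 12, 0 and 2. The inner edge thus held 266 reads per kb and the outer edge 7.00. The name of the deposited profile marks it as combined for the Hbb locus, and the sources used here do not say whether viewpoints or replicates were combined. In GRCm38.p6 the promoter windows of Hbb-bt and Hbb-bs end at 103814173 and 103828178, a spacing close to that of the stretches' centres. If this stretch is a second viewpoint, the counts hold reads of both and distances from the first hold only in part. The peak at 18 to 20 kb, described next, would then lie nearer to a viewpoint than its distance states. Whether this stretch was captured was not tested.

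A second, smaller peak stood at 18 to 20 kb, made up of 5 successive fragments with 2743 reads. The largest, chr7:110957505-110958539, had 388, 304 and 267 reads, or 705 ± 84.1 per 100000 cis reads (SD, n = 3), and was the sixth highest of the region. Next to it chr7:110957191-110957451 had 369, 235 and 217 reads, or 601 ± 136. Between both lies a fragment of only 53 bp, chr7:110957452-110957504, with 124, 90 and 90 reads, which made it the densest of the 5 at 5736 reads per kb. The outer members, chr7:110956872-110957190 and chr7:110956603-110956871, had 279 and 380 reads. On its inner side the peak dropped to 59 reads in chr7:110958540-110959282, so its edge was steeper towards the viewpoint than outwards, where the next fragments had 173 and 244 reads.

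Single fragments without reads lay inside well-covered sequence. The 694 bp fragment chr7:110954816-110955509 had 0 reads in each column, while the fragments that adjoin it had 115 and 244. Of all empty members, it and a 29 bp fragment, chr7:110918817-110918845, were the 2 single ones with at least 20 reads in the fragments on both sides. At 24 kb, the 620 bp fragment chr7:110951699-110952318 was empty between 43 and 5 reads. Near 30 kb, 6 successive fragments of 1632 listed bp, chr7:110945492-110947730, were empty between neighbours of 97 and 20 reads. Empty fragments were thus found in sequence of high contact as well as at the far end. The sources used here do not state how reads of repeated or near-identical sequence, such as the globin copies, were treated.

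From 25 to 50 kb the reads declined without a further peak of that height. The windows of 5 kb there held 1226, 871, 864, 436 and 238 reads, and the median fragment had 46. Their mean density fell from 181 to 34.8. The highest fragments were chr7:110944142-110944363 with 69, 72 and 62 reads, chr7:110940626-110941595 with 87, 70 and 49, and chr7:110943052-110944115 with 69, 82 and 51. Scaled, these are 151 ± 13.7, 150 ± 23.4 and 148 ± 16.5 per 100000 cis reads, values that differ by less than the spread between columns. The highest of them had 206 reads, against 959 at 18 to 20 kb.

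Contact density, counted as reads per kb for every 100000 cis reads, fell in steps along the region. It was 1664 ± 252 at 0 to 5 kb (SD, n = 3), 45.0 ± 9.09 at 5 to 15 kb and 274 ± 36.2 at 15 to 25 kb. Farther out it was 107 ± 1.78 at 25 to 50 kb, 23.6 ± 1.47 at 50 to 100 kb and 8.42 ± 0.14 at 100 to 150 kb. The density at 15 to 25 kb was 6.15-fold that of the nearer 5 to 15 kb (5.61 to 6.79 over the columns), so the order by distance was turned there. A log-log fit from 15 to 150 kb had a slope of -1.98 ± 0.12, against -1.07 ± 0.068 on the LCR side. The slope was steeper here in each column, with differences of -0.97, -0.87 and -0.88, and the exact sign-flip permutation test of that difference gave p = 0.25, two-sided, the smallest that 3 columns allow. The mean difference of -0.91 shrank to -0.40 from 20 to 150 kb and to -0.38 from 15 to 200 kb.

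**Figure D2:**
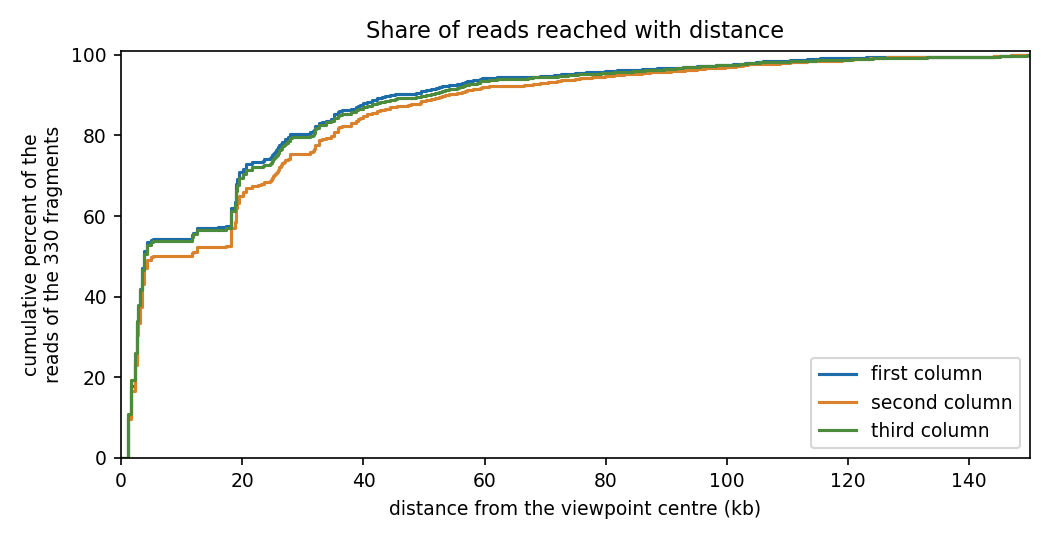
Cumulative percent of the reads of the 330 fragments against distance from the viewpoint's centre in kb, 1 line per column. Each line rises within 5 kb, stays flat over the empty run, rises again at 18 to 20 kb and flattens beyond 60 kb; the second column reaches 50% at 11.6 kb and the other columns at 3.80 kb.

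The columns differed in how much of the region's signal lay close in. Fragments within 5 kb held 54.2% of the region's reads in the first column, 49.9% in the second and 53.6% in the third. As shares of all cis reads these were 9.20%, 6.88% and 8.89%. From 50 to 100 kb the shares of cis reads were 1.11%, 1.17% and 1.26%, and from 100 to 150 kb 0.415%, 0.428% and 0.420%. The second column was low near the viewpoint and not far out: scaled to cis reads it was the lowest of the columns in all 5 windows within 25 kb, and in 7 of the 25 windows from 25 to 150 kb. It was also the lowest in all 15 of the highest fragments. In the 25 windows that had 30 reads or more, the columns differed beyond counting error, with a chi-square of 6.60 per degree of freedom after scaling to cis reads. Scaling to the reads of the region left 3.08, and the LCR side gave 4.61 and 2.97 over 27 windows. Across the 330 fragments the Spearman correlations between columns were 0.87 to 0.88, a description over fragments of shared length and position, not over replicates.

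A step lay at 60 kb. The windows at 50 to 55 and 55 to 60 kb held 350 and 389 reads, and those at 60 to 65 and 65 to 70 kb held 71 and 103. At 50 to 60 kb the density was 55.0, 48.5 and 61.0 in the 3 columns, and at 60 to 70 kb it was 8.90, 15.2 and 14.7, so the columns did not overlap. The nearer 10 kb had 4.34-fold the density of the farther (3.19 to 6.18), and over the same distances on the LCR side the fold was 2.24 (2.01 to 2.38). Counted per fragment instead of per kb, the log2 ratio fell from 2.12 to 1.12, with 26 fragments in the nearer and 13 in the farther 10 kb. The step was picked after its values were seen, and the exact sign-flip permutation test gave the smallest p that 3 columns allow, 0.25. In the windows at 60 to 65 kb, 5 fragments cover 6699 bp, the longest being chr7:110909821-110913168 with 3348 bp and 1, 4 and 7 reads.

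Beyond the step the 5 kb windows up to 125 kb had mean densities from 7.81 to 23.2. The density of 60 to 125 kb as a whole was 14.6 ± 1.03, and the 142 fragments there had a median of 6.5 reads and a maximum of 35. At 100 to 105 kb the density was 20.2 ± 1.51, the second highest of those windows after the 23.2 ± 1.70 at 70 to 75 kb. The highest fragments at 100 to 150 kb had 24, 23 and 20 reads, too few to rank them beyond the spread of the columns.

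From 125 to 145 kb the region was nearly empty. Only 12 of 31 fragments had a read, and their sum was 21, 21 and 18 reads in the columns, a density of 2.22 ± 0.16. The 15 kb before it had 10.8 ± 1.10, which is 4.87-fold higher (4.52 to 5.59), and the 5 kb after it had 12.2 ± 2.45. Per fragment, the log2 ratio of the 15 kb before over the stretch was 1.5, against 2.28 per kb. Each column had its lower values in the 20 kb between. Most of the empty fragments belong to 2 runs: 9 fragments of 5913 listed bp at chr7:110843327-110849476, the longest empty run of the region, and 7 fragments of 3212 listed bp at chr7:110834278-110839597. The latter encloses 2108 unlisted bp. The LCR side also fell, from a density of 54.6 ± 3.38 at 110 to 125 kb to 14.3 ± 2.88 at 125 to 145 kb. At 145 to 150 kb it had 12.3 ± 2.48, so there the density did not rise again.

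The low stretch ended inside the region. At 150 to 200 kb on this side the density was 10.6 ± 1.25, 1.26-fold that of 100 to 150 kb (1.15 to 1.41), higher in 3 of 3 columns, with an exact sign-flip permutation p of 0.25, the smallest possible. With 75 kb on each side of the edge instead of 50 kb, the log2 ratio was -0.054, so the rise depends on the range chosen.

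Short fragments were more often empty over the whole region, though not at every distance. Of the 58 members under 100 bp, 17 were empty (29.3%), and of the 44 members of at least 800 bp, 5 were (11.4%). Without the 3 empty runs of at least 3 kb, which hold 36 of the 69 empty fragments, the shares were 21.2% and 2.50%. The order was not even: 31.7% of the members of 100 to 200 bp were empty, and at 15 to 50 kb 0 of 14 members under 100 bp were empty against 5 of 15 of 400 to 800 bp. From 50 to 150 kb reads rose with length, but less than in proportion. Fragments under 100 bp had a mean of 3.15 reads and those of at least 800 bp a mean of 15. Per kb these classes held 52.2 and 11 reads.

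The sides of the viewpoint were then set against each other in 5 kb windows at equal distance, with edgeR's quasi-likelihood test and the column as a block. Over the whole 0 to 150 kb this side had 0.69-fold the reads of the LCR side, with log2 ratios of -0.50, -0.62 and -0.50 (mean -0.54 ± 0.069, SD, n = 3; exact sign-flip permutation p = 0.25, two-sided, the smallest possible). This ratio depends on where the viewpoint is placed: the mean was -2.15 with the other unlisted stretch as viewpoint, -2.05 with the midpoint of both, and -0.89 with the highest counts capped. Beyond the unlisted stretches, from 15 to 150 kb, the LCR side was 2.55-fold higher (2.51 to 2.58). Of the 30 windows within 150 kb, 22 were lower on this side and 4 were higher at an adjusted p under 0.05. Over all 196 windows tested up to 1 Mb, 23.5% were lower and 27.6% higher. The share of lower windows in the region, 73.3%, was thus above that of all windows, and the share of higher ones, 13.3%, was below it; the median log2 ratio was -1.64 here and 0.52 over all windows. These p-values rest on the spread between 3 columns, estimated with information pooled over all windows tested. They can therefore be far smaller than 3 columns alone allow.

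**Figure D3:**
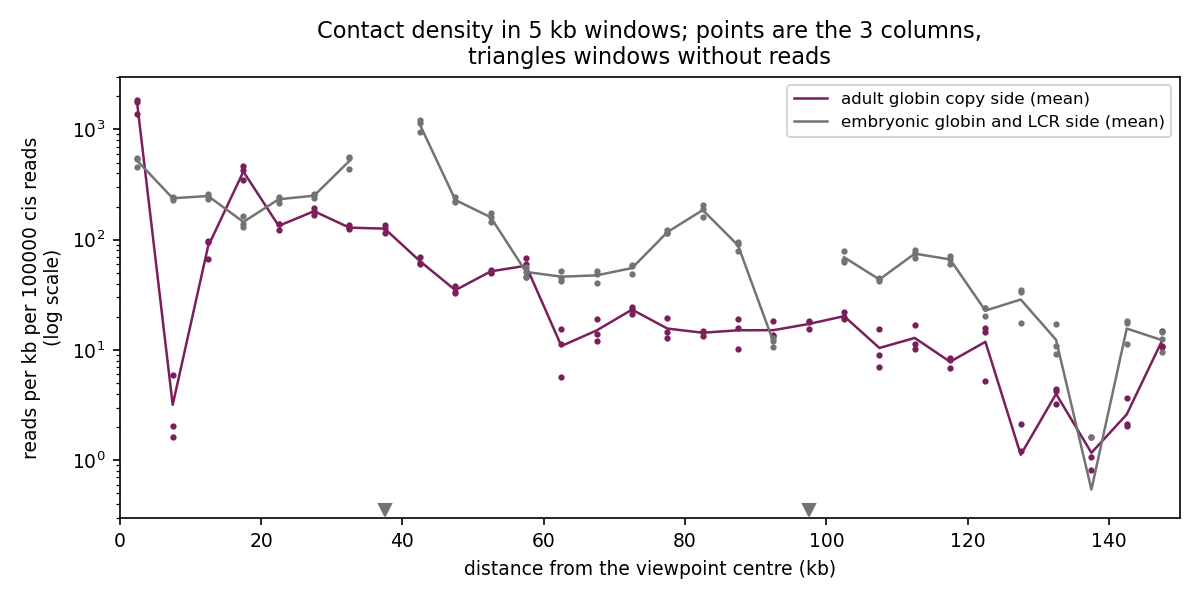
Contact density in 5 kb windows, as reads per kb for every 100000 cis reads on a log axis, against distance from the viewpoint's centre in kb, for the region (purple) and the LCR side (grey); lines are means, points the 3 columns (none where a column is at 0) and triangles windows without reads. The region lies above the grey line at 0 to 5 and 15 to 20 kb and below it at most other distances.

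The windows in which this side was higher fall into 2 kinds. Close to the viewpoint, the 0 to 5 kb window had 1840, 1376 and 1777 here against 545, 461 and 553 on the LCR side, a log2 ratio of 1.67 ± 0.062 (SE, adjusted p = 1.6e-89). The 15 to 20 kb window, which holds the second peak, had 471, 346 and 427 against 165, 138 and 131, a log2 ratio of 1.51 ± 0.080 (adjusted p = 1.4e-55). In both, no column of one side overlapped the other. Measured from the midpoint of both unlisted stretches, which moves other fragments into each window, these ratios turned to -4.55 and -0.58. The other two windows, at 35 to 40 and 95 to 100 kb, had 864 and 118 reads here and 0 on the LCR side. Against 3 reads per column, counted per kb of the full window, this side was at least 93.6-fold and at least 12.8-fold higher there. These bounds take no account of how much sequence is listed, so at 95 to 100 kb the value is no bound on contact. The LCR side holds an empty run of 6694 bp, chr7:111009378-111016071, which begins before 35 kb and takes up most of the 35 to 40 kb window. HS2 and HS3 are deleted in these cells, and deleted sequence can give no reads. Whether the run is deleted sequence was not tested. At 95 to 100 kb 1 fragment of 218 bp is all that is listed on the LCR side. Both windows thus say little about the region itself. With the empty run taken out of the distances on the LCR side, both turned to the opposite direction, with log2 ratios of -2.97 and -1.88. The 95 to 100 kb window was also no longer called without the second column (adjusted p = 0.064).

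Among the windows in which this side was lower, 5 to 10 kb had the smallest log2 ratio, -6.31 ± 0.17 (SE, adjusted p = 9.4e-125). The first empty run takes up most of it, and 1 fragment held all its 5, 4 and 11 reads, against 605, 584 and 432 on the LCR side. The window at 125 to 130 kb followed, with 0, 3 and 4 reads against 43, 82 and 66 and a log2 ratio of -4.72 ± 0.44 (adjusted p = 6.4e-23, and 0.062 without the second column). At 40 to 45 kb there were 173, 151 and 112 reads against 2981, 2322 and 2144, a log2 ratio of -4.10 ± 0.082 (adjusted p = 1.9e-169). With the empty run of the LCR side taken out of distances, these were -2.96 at 125 to 130 kb and -1.52 at 40 to 45 kb. From the midpoint viewpoint, the 40 to 45 kb window instead had no reads on the LCR side. The mildest of the called windows was 25 to 30 kb at -0.47 ± 0.082 (adjusted p = 1.2e-07), which was not called by DESeq2 (adjusted p = 0.075, with a range of 1.2e-07 to 0.075 over its alternatives) nor from the midpoint viewpoint (adjusted p = 0.071). In 4 windows the sides did not pass the threshold: 55 to 60, 90 to 95, 135 to 140 and 145 to 150 kb, with log2 ratios of 0.17 ± 0.15, 0.34 ± 0.31, 1.09 ± 1.48 and -0.04 ± 0.32.

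**Figure D4:**
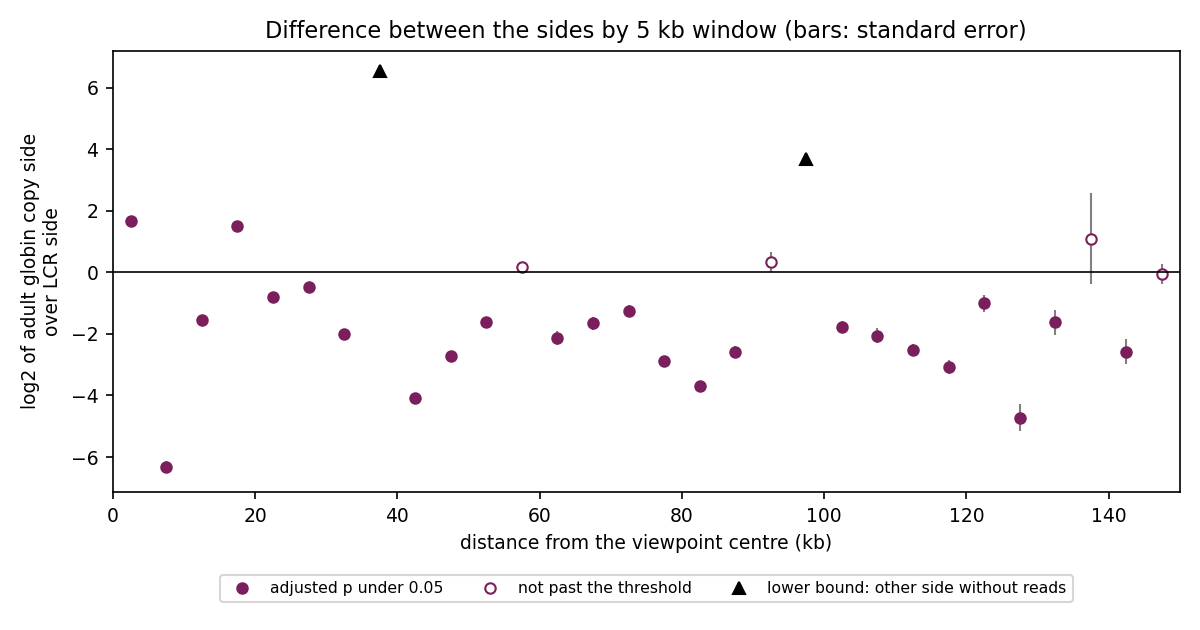
Log2 ratio of the region over the LCR side in each 5 kb window against distance from the viewpoint's centre in kb, with its standard error; filled points have an adjusted p under 0.05, open points do not, and triangles are lower bounds for windows without reads on the LCR side. 22 windows lie below 0 and 4 above it past the threshold. The lower bounds take no account of how much sequence is listed.

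Grouped by distance, the difference between the sides was not even. This side was higher at 0 to 5 kb by 3.19-fold (2.99 to 3.38 over the columns) and at 15 to 25 kb by 1.45-fold (1.32 to 1.52). The latter joins 2.86-fold higher at 15 to 20 kb with 1.74-fold lower at 20 to 25 kb (1.70 to 1.76). With the highest counts capped, the log2 ratio at 0 to 5 kb was 0.87 instead of 1.67. It was lower by 5.49-fold at 5 to 15 kb (4.61 to 7.06), by 3.91-fold at 25 to 50 kb (3.56 to 4.14), by 3.23-fold at 50 to 100 kb (3.02 to 3.57) and by 4.10-fold at 100 to 150 kb (3.90 to 4.36). In each group the 3 columns lay on one side of equality.

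Finally, each window was set against the distance decay of its own side, a monotone curve through these same reads. An edgeR quasi-likelihood test compared each window's reads with the fitted ones, here without a column block. Of the region's 28 windows from 10 to 150 kb, 5 (17.9%) were higher and 7 (25%) lower than the curve at an adjusted p under 0.05, where over all 396 windows of both sides 11.4% were higher and 14.1% lower. The median log2 ratio to the curve was -0.06 in the region and -0.08 over all windows. The curve pools windows that break the order by distance, so the windows at 10 to 15 and 15 to 20 kb had the same fitted value of 1709 reads, and with 586 and 2816 reads one had to lie below it and the other above. Both are among the counts, and their log2 ratios of -1.54 and 0.72 are a description with no test. The counts also hold the windows at 125 to 145 kb, treated below, which the curve affects likewise. The region's shares therefore do not show more departures from the curve here than over all windows. The other higher windows had log2 ratios of 0.59 ± 0.18 (SE) at 100 to 105 kb, 0.49 ± 0.16 at 70 to 75 kb, 0.48 ± 0.11 at 55 to 60 kb and 0.37 ± 0.089 at 25 to 30 kb. DESeq2 did not call the first and second of these (adjusted p = 0.089 and 0.17). With 20 bins per decade, edgeR did not call 100 to 105 and 25 to 30 kb (adjusted p = 0.080 and 0.27). The 70 to 75 kb window was lost with any column left out. Around 25 to 30 kb the curve was nearly flat, with fitted values of 957, 955 and 948 reads from 20 to 35 kb.

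All 4 windows of the nearly empty 20 kb lay below the curve. The curve cannot rise with distance, so it pools part of this stretch with the higher reads beyond it. The windows at 140 to 145 and 145 to 150 kb had the same fitted value of 63.6 reads, with 18 and 81 found. The log2 ratios of the 4 windows are thus a description with no test, though these windows are among the counts. At 125 to 130 kb 7 reads were found where the curve gave 72.0, a log2 ratio of -3.33 ± 0.78 (SE). The windows at 135 to 140 and 140 to 145 kb had 8 and 18 reads, with log2 ratios of -3.04 ± 0.74 and -1.83 ± 0.48, and the window at 130 to 135 kb had 27 reads and -1.35 ± 0.37. Below the curve was also 60 to 65 kb (-1.43 ± 0.24), just past the step, and 45 to 50 kb (-0.58 ± 0.13). Without the first or the second column, 7 windows were lower and 3 higher. The fewest calls were left without the third column: 1 window was lower and 0 were higher by edgeR, with 12 of 28 at an unadjusted p under 0.05. The log2 ratios moved less than the p-values. At 45 to 50 kb the ratio was -0.55 ± 0.12 without the third column (edgeR, unadjusted p = 0.012). Without the first column it was -0.52 ± 0.18 (unadjusted p = 0.0041), a smaller ratio with a larger SE and yet a smaller p. DESeq2 on all columns called 6 lower and 3 higher.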

How the data were processed

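The authors deposited 1 table of unnormalised counts, with 3 columns and a line for each listed DpnII fragment of chromosome 7. Trim Galore, Bowtie2 and build mm9 are named without versions in the submitters' processing notes; the counting of junctions, the removal of reads and the choice of listed fragments are not given in the sources used. The header has 1 cell, so each column stands for an unnumbered sample of the single group. The members and all gene, window and zone lists were chosen with earlier results of these data known.

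Distances start at 110976215, the middle of the unlisted stretch (1.5 kb or longer) that borders the fragment with the highest count. Fragments were assigned to 5 kb windows by midpoint. Windows with at least 10 reads were tested with edgeR 4.0.16 (quasi-likelihood F test, library size the cis reads, no TMM, Benjamini-Hochberg over all windows up to 1 Mb); for the decay test the null fitted the expected reads, from isotonic regression (scikit-learn 1.9.0) with 10 bins per decade. In both edgeR tests the SE is the absolute log2 ratio divided by the square root of F. Both tests were run on simulated counts of independent windows with a fixed spread and the fitted curve taken as known. Those runs do not cover the fitting of the curve or the spread of the real columns. Alternatives were DESeq2 1.42.0, TMM, other filters, windows, curves and viewpoints, capped counts and each column left out. Named were the 15 highest fragments, those adjoining unlisted stretches, empty runs of at least 3 kb, and of the windows called in each test the 5 with the largest and 3 with the smallest log2 ratio; other fragments and windows were named after their values were seen.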

Additional observations from a re-analysis of the deposited data

How the results depend on the processing

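Leaving out 1 column moved the region's share of cis reads to between 15.2% and 16.8%, the log2 side ratio to between -0.56 and -0.50, the slope to between -2.03 and -1.92, the share of the 10 highest fragments to between 56.7% and 59.4%, the lower side windows to between 17 (without the second column) and 22, the higher ones to between 3 and 4, and the windows against the own-side curve to between 1 (without the third column) and 7 lower and 0 and 3 higher; the longest empty run stayed at 5913 bp. The share was 8.39% without fragments within 5 kb, 12.0% with capped counts and 33.8% of the reads within 1 Mb. The 10 highest fragments held 61.0% without fragments under 100 bp, 38.4% without those within 5 kb and 39.8% from 15 to 150 kb. The slope was -1.76 from 15 to 200 kb. The empty run was 5731 bp without fragments under 100 bp. The outer edge ratio turned to -0.054 on the log2 scale with 75 kb on each side of the edge. With 2 kb windows 49 were lower and 12 higher on this side, and with 10 kb windows 12 were lower, by construction with other numbers of windows. Against the own-side decay, one curve over both sides gave 25 lower and 1 higher, a power law gave 18 lower, and DESeq2 gave 3 higher. One curve over both sides turned the windows at 25 to 30, 55 to 60, 70 to 75 kb and the window from 100 kb to -0.42, -0.22, -0.88 and -0.87, and a power law turned the last 2 to -0.53 and -0.21. With the empty run taken out of distances on the LCR side, the side windows at 35 to 40 and 95 to 100 kb turned to -2.97 and -1.88. With the midpoint of both unlisted stretches as viewpoint, the side windows at 0 to 5, 15 to 20, 35 to 40, 40 to 45 and 95 to 100 kb, which then hold other fragments, turned to -4.55, -0.58, -3.53, 9.69 (a fitted value, no bound) and -0.44. The difference of slopes was -0.40 from 20 kb and -0.38 up to 200 kb, and the side ratio -2.15 from the other stretch and -2.05 from the midpoint. No alternative run turned the direction of the side ratio, the zone ratios, the step or the slope. Other viewpoints were not tried for the zone ratios, the step and the slope. The 0 to 5 kb side window, which has the distances of the first zone, turned to -4.55 from the midpoint. The differences between sides by zone and the step at 60 kb and the low stretch had alternatives chosen after seeing the data. No paired analysis was possible because the labels give 1 group; the column was a block in the test of sides, and without it 22 windows were lower and 4 higher. Depth limits single fragments beyond 60 kb, where the median was 6.5 reads before the low stretch.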
